A study of Mus musculus with 6 samples.

Results

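The PI3K and mTOR pathway was examined through 9 of its genes, Inpp5d, Pik3cd, Pik3r1, Akt1, Tsc1, Tsc2, Mtor, Rptor and Rictor. Their rows were taken by gene symbol from the deposited count matrix, which holds all 9 of them among 48397 genes, and no expression value entered the rule. The matrix comes from RNA-Seq of stage 0 iNKT cells, the earliest precursors of invariant natural killer T cells in the thymus just after positive selection. The cells came from WT mice of the BALB/c strain and from SKG mice, which have the same BALB/c background and carry a hypomorphic mutation of Zap70, the kinase that relays the signal of the T cell receptor. The mutation is in the germline, so cells other than iNKT precursors carry it too. All mice were 8 to 10 weeks old, and the sort took cells that bound the PBS57-loaded CD1d tetramer and were positive for CD24 and CD69, negative for CD44 and CD8 and low or negative for CD4. Each genotype had 3 libraries, and each library was made from about 1000 cells of the pooled thymi of 3 mice, so a replicate is a pool and not an animal.

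Class I PI3K is an enzyme that is recruited to the inner face of the cell membrane after engagement of the T cell receptor and costimulatory receptors, and it makes a phosphorylated membrane lipid to which AKT binds. Lipid phosphatases remove that lipid again. Active AKT inhibits the TSC complex, which otherwise keeps the small GTPase Rheb inactive, and Rheb in turn activates the kinase mTOR in the complex mTORC1. In thymocytes and iNKT cells the pathway is known for its part in growth, metabolism and survival after selection and in the development of the effector subsets. The comparison below asks whether transcripts of the pathway differ between precursors with full and with weakened Zap70 signaling.

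The libraries held between 37176544 and 43115544 reads on genes, and between 10835 and 14791 genes had at least 10 reads. Zap70 itself lay between 374 and 498 CPM (the reads of a gene scaled to the normalized total of its library) in BALB/c and between 322 and 409 CPM in SKG, and these ranges overlapped. The 5 transcripts listed for the sorted stage were present in every library. Cd3e lay between 798 and 1096 CPM, Trac between 704 and 917 CPM and Egr2 between 493 and 1546 CPM. Of the markers used in the gate, Cd69 lay between 152 and 391 CPM, and Cd24a was lower, between 7.31 and 90.7 CPM. Of 5 transcripts listed for mature iNKT cells, Tbx21 had 0 reads in all 6 libraries. Klrb1c reached at most 3.87 CPM, and Cd44 lay between 0.103 and 14.5 CPM. Zbtb16 lay between 83.3 and 178 CPM and Il2rb between 146 and 297 CPM. The 5 summed to 306 to 447 CPM in BALB/c and 304 to 412 CPM in SKG. The paper describes the precursors that directly follow stage 0 as high in PLZF, the product of Zbtb16, so Zbtb16 is not particular to mature cells. Markers of other cell types were also detected. The summed level of 7 markers of double-positive thymocytes lay between 66.5 and 437 CPM in BALB/c and between 71.1 and 221 CPM in SKG, with the highest sum in BALB/c replicate 1, although the gate removed CD8-positive cells. The summed level of 5 myeloid markers was 222 CPM in BALB/c replicate 1 and 238 CPM in SKG replicate 3 and lay between 70.3 and 97.2 CPM in the others, while the defining markers Itgam and Csf1r were at or near 0 throughout. Globin reads were found mainly in BALB/c replicate 1, where 6 erythroid markers summed to 69.7 CPM against at most 1.57 CPM elsewhere, and Alas2 was at 0. B cell markers summed to 105 CPM in BALB/c replicate 1 and to at most 45.0 CPM elsewhere. Because of these sums, some of the values that moved without BALB/c replicate 1 and SKG replicate 3 are also given without both. A value printed without that fit may also have moved, and the part of other cells in any result was not tested.

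Transcripts of all 9 genes were detected in all 6 libraries (plot of the levels per kilobase by library). Set per kilobase of annotated exon, Pik3cd stood highest, at 78.4 ± 16.7 CPM per kb in BALB/c and 122 ± 36.9 CPM per kb in SKG (mean ± SD, n = 3 libraries). Pik3cd encodes p110δ, the catalytic subunit of PI3K that is characteristic of leukocytes. Inpp5d followed at a mean of 24.3 CPM per kb over the 6 libraries, then Akt1 at 19.8, Rictor at 13.2, Tsc2 at 11.0, Mtor at 6.44, Tsc1 at 5.05, Rptor at 3.58 and Pik3r1 at 2.74 CPM per kb. Between Pik3cd and Inpp5d the levels of the libraries did not overlap, with 60.4 CPM per kb as the lowest Pik3cd value and 34.2 CPM per kb as the highest Inpp5d value. Each of the other neighbours in this order overlapped over the libraries. The length used is the union of all annotated exons of a gene, which understates the level of genes with long exons that the cells do not use.

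**Figure D1:**
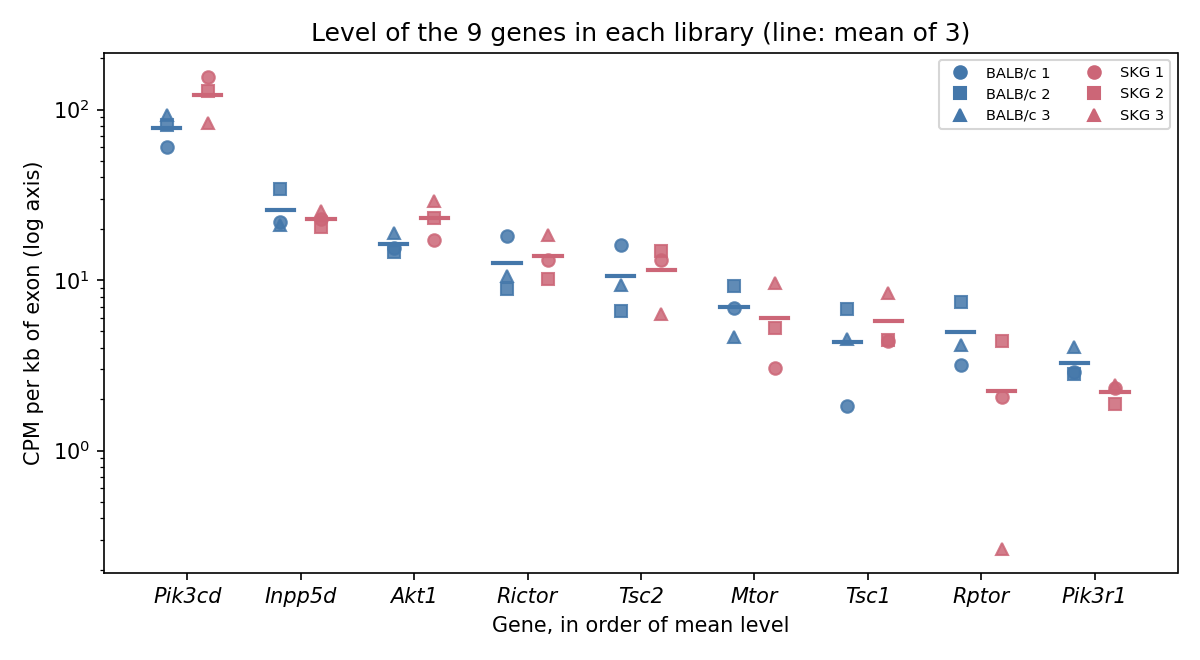
Level of each gene in CPM per kb of exon on a log axis, with 1 point per library, BALB/c in blue and SKG in red, and a line at the mean of 3 libraries. Pik3cd lies above all other genes in every library, and SKG replicate 3 has a Rptor level of 0.265 CPM per kb, below all other points.

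Within their protein families these genes took very different shares, which were computed per kilobase after the levels had been seen (plot of shares by family). Among the class I catalytic subunits, Pik3cd made up between 72.9% and 83.1% of the summed level in each library. Pik3cg, the subunit coupled to G protein receptors, reached at most 22.1 CPM per kb, the widely expressed Pik3ca at most 9.20, and Pik3cb at most 1.10 CPM per kb. On the regulatory side the sum ran over Pik3r1, Pik3r2, Pik3r3, Pik3r5 and Pik3r6, whichever catalytic subunit they bind. Pik3r5 alone held between 21.8% and 43.2% of this sum in each library. Pik3r1, which encodes p85α, held only 12.9% ± 3.53 of it in BALB/c and 6.74% ± 2.38 in SKG (mean ± SD, n = 3 libraries). The related adaptor Pik3r2 (p85β) was above Pik3r1 in every library, with 10.8 CPM per kb as its lowest value against 4.05 CPM per kb as the highest of Pik3r1. Akt1 was likewise the lesser of its pair, since Akt2 lay between 51.6 and 103 CPM per kb and Akt1 between 14.6 and 29.3 CPM per kb. Among the subunits of the mTOR complexes, Mapkap1, which encodes the mTORC2 subunit SIN1, stood highest in all libraries, while Prr5 had 0 reads in all 6 and Deptor at most 0.0349 CPM per kb.

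**Figure D2:**
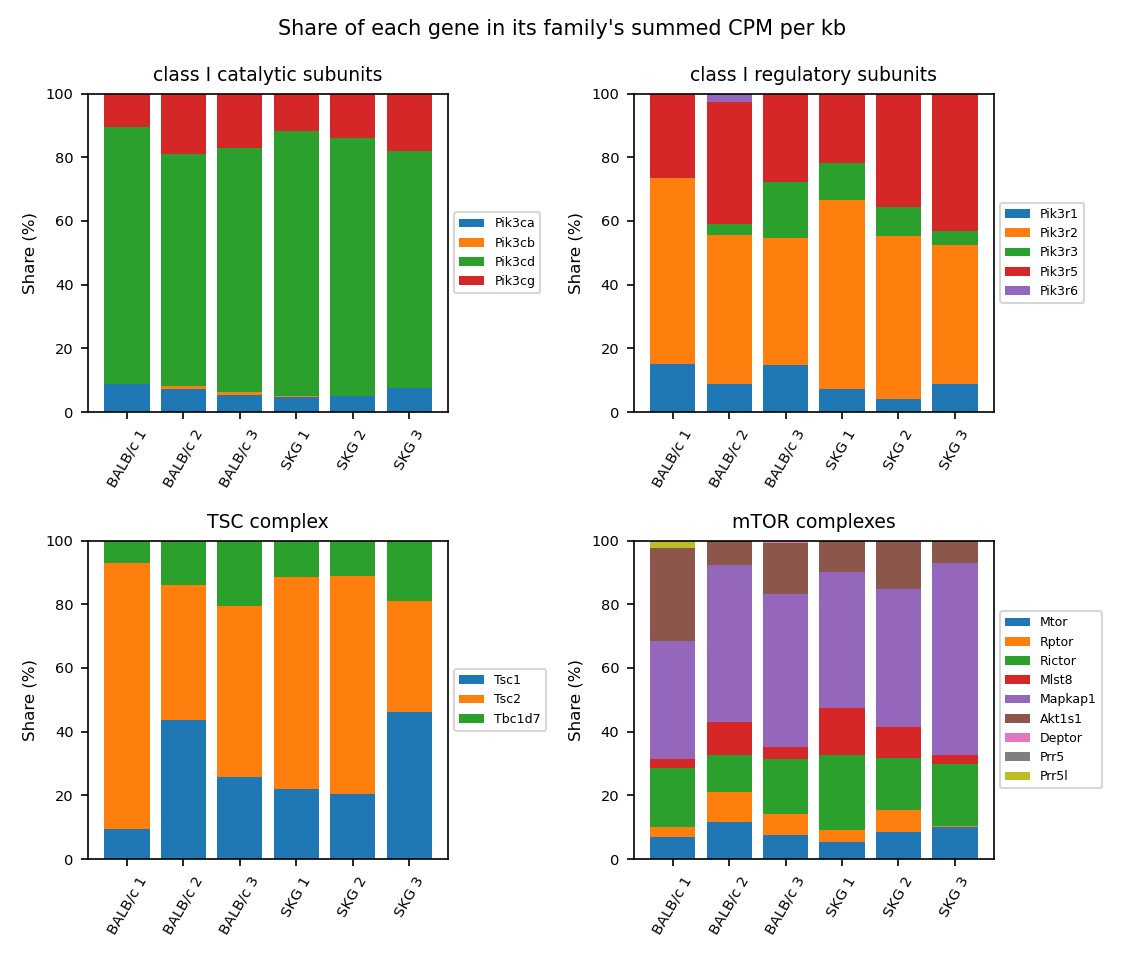
Share of each gene in the summed CPM per kb of its protein family, in percent, as stacked bars for the 6 libraries. Pik3cd fills 72.9% to 83.1% of the catalytic subunits, and Pik3r1 fills 4.16% to 15.0% of the regulatory subunits.

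None of the 9 genes was called differentially expressed between SKG and BALB/c by edgeR or DESeq2. With calls set at a false discovery rate (FDR) below 0.1 plus a change of 1.5-fold or more, edgeR called 0 of the 9 genes, against a background of 0% of the 12312 genes tested. At an unadjusted p under 0.05 edgeR found 0 of the 9 (background 5.45%), and 1 of the 9, Pik3r1, had libraries that did not overlap between the genotypes (background 13.9%). DESeq2 also called 0 of the 9, although it called 189 genes in all (background 1.54%), and found 1 of the 9, Pik3cd, at an unadjusted p under 0.05 (background 8.36%). The 9 log2 fold changes (SKG over BALB/c) were above 0 for 5 genes and below 0 for 4, with a median of 0.10 against -0.016 over all tested genes. As RNA was taken in bulk, fewer cells with a transcript and less transcript per cell cannot be told apart in any of these values. Libraries of 1 genotype also differed from each other. The highest CPM was a median of 2.101 times the lowest among the BALB/c libraries and 2.14 times among the SKG libraries over the tested genes with reads in that genotype, and a median of 1.97 and 1.88 times over the 9. The plot of fold changes shows how wide the intervals were.

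**Figure D3:**
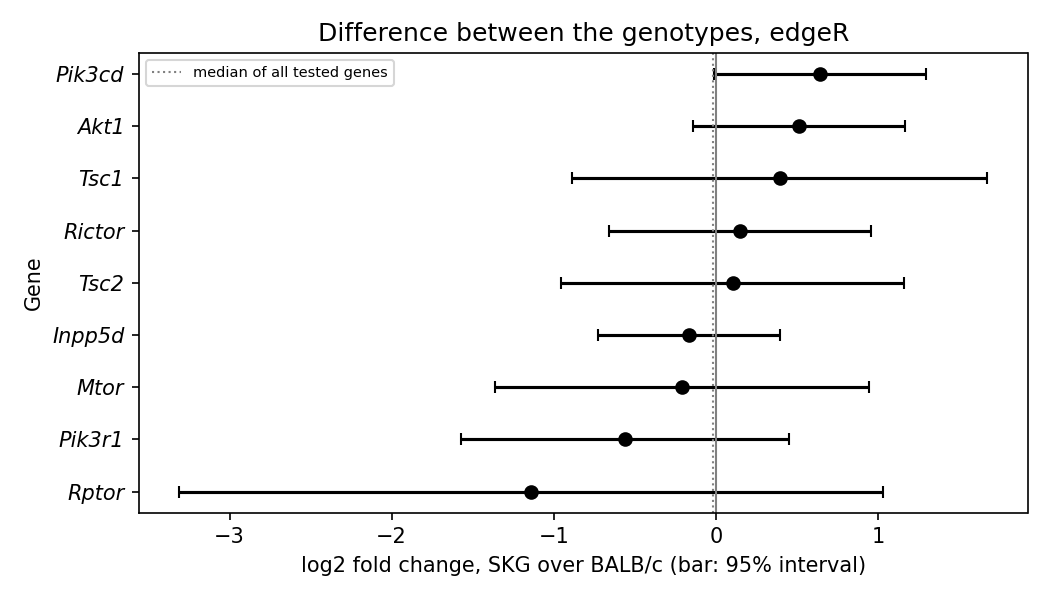
The log2 fold change (SKG over BALB/c) of each gene from edgeR with its 95% interval, in order of size, and a dotted line at the median of all tested genes. All 9 intervals include 0, that of Pik3cd only narrowly, and the interval of Rptor reaches from -3.31 to 1.03.

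Pik3cd showed the lowest p of the 9. The gene lies on chromosome 4 (GRCm38, 149649168 to 149702571, minus strand) and gathered 15595, 18898 and 26432 reads from the 3 BALB/c libraries in order of replicate and 39389, 31160 and 18789 reads from those of SKG. Normalized, these were 378, 509 and 585 CPM in BALB/c and 978, 802 and 520 CPM in SKG. The SKG replicates 1 and 2 thus lay above all BALB/c libraries, and SKG replicate 3 fell between the BALB/c values. The fitted fold change was 1.56, with a 95% interval from 0.992 to 2.46 (log2 fold change 0.64, SE 0.27, edgeR FDR = 0.932). Without BALB/c replicate 1 and SKG replicate 3, a choice made after seeing the data, the log2 fold change was 0.71 with an edgeR FDR of 0.795. Over 16 alternative settings it lay between 0.43 and 0.87, with an FDR of at least 0.334. The tested genes whose log2 CPM followed Pik3cd most closely over the 6 libraries were Dhx15, an RNA helicase of splicing (Pearson r = 0.99), Pkhd1l1 (0.98) and the small GTPase Arl5a (0.97). These are descriptions over 6 points that share their library preparation, 0.820% of the other tested genes had an r above 0.9, and Pkhd1l1 had at most 68 reads in a library.

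Pik3r1 was the gene whose libraries separated by genotype. p85α binds the catalytic subunit, stabilizes it and restrains its activity until receptors engage it. The gene (chromosome 13, GRCm38, 101680563 to 101768217, minus strand) gathered 1207, 1058 and 1845 reads from BALB/c and 946, 739 and 881 from SKG, or 29.3, 28.5 and 40.8 CPM against 23.5, 19.0 and 24.4 CPM. All BALB/c libraries were above all SKG libraries, though the gap between 28.5 and 24.4 CPM was smaller than the spread within BALB/c. The log2 fold change was -0.56 (SE 0.42, 95% interval -1.57 to 0.45, edgeR FDR = 0.991). The summed level of 5 transcripts of the sorted stage also separated by genotype, with 3098 to 3924 CPM in BALB/c and 2700 to 3012 CPM in SKG. Among them Egr2 and Cd69 were higher in all BALB/c libraries, Cd3e and Trac overlapped, and Cd24a lay between 7.31 and 52.4 CPM in BALB/c and between 31.9 and 90.7 CPM in SKG. The part of these transcripts in the Pik3r1 values was not tested.

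Inpp5d encodes SHIP-1, the phosphatase of hematopoietic cells that turns over the lipid product of PI3K. It was the steadiest of the 9 genes. On chromosome 1 (GRCm38, 87620312 to 87720507, plus strand) it gathered 6841, 9643 and 7213 reads from BALB/c and 6996, 6080 and 6961 from SKG. In CPM these were 166, 260 and 160 for BALB/c and 174, 156 and 192 for SKG, so that BALB/c replicate 2 stood apart upward and the remaining 5 libraries lay within 156 to 192 CPM. The highest value was 1.66 times the lowest, a smaller spread than in all but 11.9% of the tested genes. The log2 fold change was -0.16 (SE 0.23, 95% interval -0.72 to 0.40). It turned to 0.089 without BALB/c replicate 2 and was -0.34 without BALB/c replicate 1 and SKG replicate 3.

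Akt1 encodes the kinase that carries the PI3K signal to the TSC complex, Foxo factors and other substrates. It lies on chromosome 12 (GRCm38, 112653821 to 112674884, minus strand). Its level was 62.9, 59.9 and 77.3 CPM in BALB/c and 70.6, 95 and 120 CPM in SKG, from 2222 to 4339 reads per library. The SKG replicates 2 and 3 were above all BALB/c libraries and SKG replicate 1 lay within the BALB/c range. The fitted fold was 1.43 with a 95% interval from 0.907 to 2.25 (log2 fold change 0.51, SE 0.27, edgeR FDR = 0.959), and the log2 fold change fell to 0.28 without BALB/c replicate 1 and SKG replicate 3.

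Tsc1 and Tsc2 encode hamartin and tuberin, the subunits of the TSC complex, of which tuberin is the GTPase-activating protein for Rheb. Tsc1 (chromosome 2, GRCm38, 28641228 to 28691167, plus strand) was at 21.5, 79.9 and 53.5 CPM in BALB/c and 51.7, 52.8 and 98.9 CPM in SKG. Tsc2 (chromosome 17, GRCm38, 24595816 to 24632630, minus strand) was at 154, 63.0 and 89.5 CPM in BALB/c and 126, 143 and 60.6 CPM in SKG. For both genes the genotypes overlapped almost fully, and the spread lay within the genotypes. The libraries ran in opposite order for these partners, in that BALB/c replicate 1 had the lowest Tsc1 and the highest Tsc2 level, and SKG replicate 3 the highest Tsc1 and the lowest Tsc2 level. The log2 fold changes were 0.39 (SE 0.53) for Tsc1 and 0.10 (SE 0.44) for Tsc2. Without BALB/c replicate 1 and SKG replicate 3 they were -0.34 for Tsc1 and 0.83 for Tsc2 (edgeR FDR = 0.795 for Tsc2), so the direction for Tsc1 rested on those 2 libraries. The exons of Tsc2 overlap those of Pkd1 on the opposite strand over 693 nt, 7.20% of the Tsc2 exon length, and as reads were counted without regard to strand, reads in that stretch could come from either gene, or be missing from both counts, since the setting for reads that overlap several genes is not given in the sources used here. Pkd1 had between 759 and 3786 reads. BALB/c replicate 1 had the fewest Pkd1 and the most Tsc2 reads, but SKG replicate 3, with the fewest Tsc2 reads (2192), also had few Pkd1 reads (1038). The part of Pkd1 in the Tsc2 values was not tested.

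Mtor encodes the kinase shared by both complexes. The gene (chromosome 4, GRCm38, 148448611 to 148557683, plus strand) was at 69.6, 92.9 and 47.0 CPM in BALB/c and 31.0, 53.1 and 97.2 CPM in SKG. SKG held both the lowest and the highest library, and the BALB/c values lay between these. The log2 fold change was -0.21 (SE 0.48, 95% interval -1.36 to 0.94), and it was 0.10 without SKG replicate 1 and 0.040 when BALB/c replicate 2 was left out, but -0.72 without BALB/c replicate 1 and SKG replicate 3.

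Rptor and Rictor encode raptor and rictor, the scaffold proteins that distinguish mTORC1 from mTORC2, and both complexes are known to be needed for iNKT cell development. Rptor (chromosome 11, GRCm38, 119602905 to 119899576, plus strand) gathered 1762, 3734 and 2521 reads from BALB/c and 1122, 2298 and 129 from SKG, or 42.7, 101 and 55.8 CPM against 27.8, 59.1 and 3.57 CPM. SKG replicate 3 was thus far below the remaining libraries at a similar depth, whereas SKG replicate 2 lay above 2 of the BALB/c libraries. Rptor had the largest fitted difference of the 9, with a log2 fold change of -1.14 (SE 0.91, 95% interval -3.31 to 1.03, edgeR FDR = 0.991), and this was -0.60 without SKG replicate 3, -2.07 without SKG replicate 2 and -0.83 when BALB/c replicate 1 and SKG replicate 3 were left out. SKG replicate 3 was also the library with the fewest genes detected. Overlap with the antisense gene Rptoros covers 84 nt of the Rptor exons, and Rptoros had at most 30 reads in a library.

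Rictor (chromosome 15, GRCm38, 6708379 to 6800401, plus strand) had 306, 151 and 179 CPM in BALB/c and 223, 171 and 311 CPM in SKG. Its highest levels, in BALB/c replicate 1 and SKG replicate 3, were nearly equal, and the genotypes overlapped over most of their range. The log2 fold change was 0.15 (SE 0.34, 95% interval -0.66 to 0.95), and its sign changed when SKG replicate 3 (-0.094) or BALB/c replicate 2 (-0.057) was left out.

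Ratios of reads within a library compare functional partners without a normalization factor, and 4 of them were tested with two-sided exact permutation tests of their log2 values (plot of ratios by genotype). With 3 libraries against 3 the smallest p such a test can give is 0.1. The ratio of Pik3r1 to Pik3cd was 0.0774, 0.0560 and 0.0698 in BALB/c and 0.0240, 0.0237 and 0.0469 in SKG. Pik3r1 held at most 15.0% of the summed level of the regulatory subunits in a library, so this ratio does not give the balance of all regulatory to catalytic transcripts. All SKG libraries were below all BALB/c libraries, with a log2 difference of -1.17 (exact permutation p = 0.1, adjusted over the 4 ratios 0.4), which is the smallest p possible in this design. Leaving out 1 library at a time kept the log2 difference between -1.49 and -1.0. Phosphatase to kinase, Inpp5d to Pik3cd, was 0.439, 0.510 and 0.273 in BALB/c and 0.178, 0.195 and 0.370 in SKG, so that the genotypes overlapped through BALB/c replicate 3 and SKG replicate 3 (log2 difference -0.75, exact permutation p = 0.2, adjusted 0.4).

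The ratio of Tsc1 to Tsc2 ranged from 0.140 to 1.27 in BALB/c and from 0.371 to 1.63 in SKG and did not separate the genotypes (log2 difference 0.41, exact permutation p = 0.9, adjusted 0.9). It became -0.47 without BALB/c replicate 1 and -0.28 without SKG replicate 3. Rictor to Rptor, which sets the scaffold of mTORC2 against that of mTORC1, was 7.17, 1.497 and 3.21 in BALB/c and 8.01, 2.89 and 87.1 in SKG. The log2 difference of 1.96 (exact permutation p = 0.3, adjusted 0.4) was 0.56 without SKG replicate 3, 3.02 without SKG replicate 2 and 1.13 when BALB/c replicate 1 and SKG replicate 3 were left out.

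**Figure D4:**
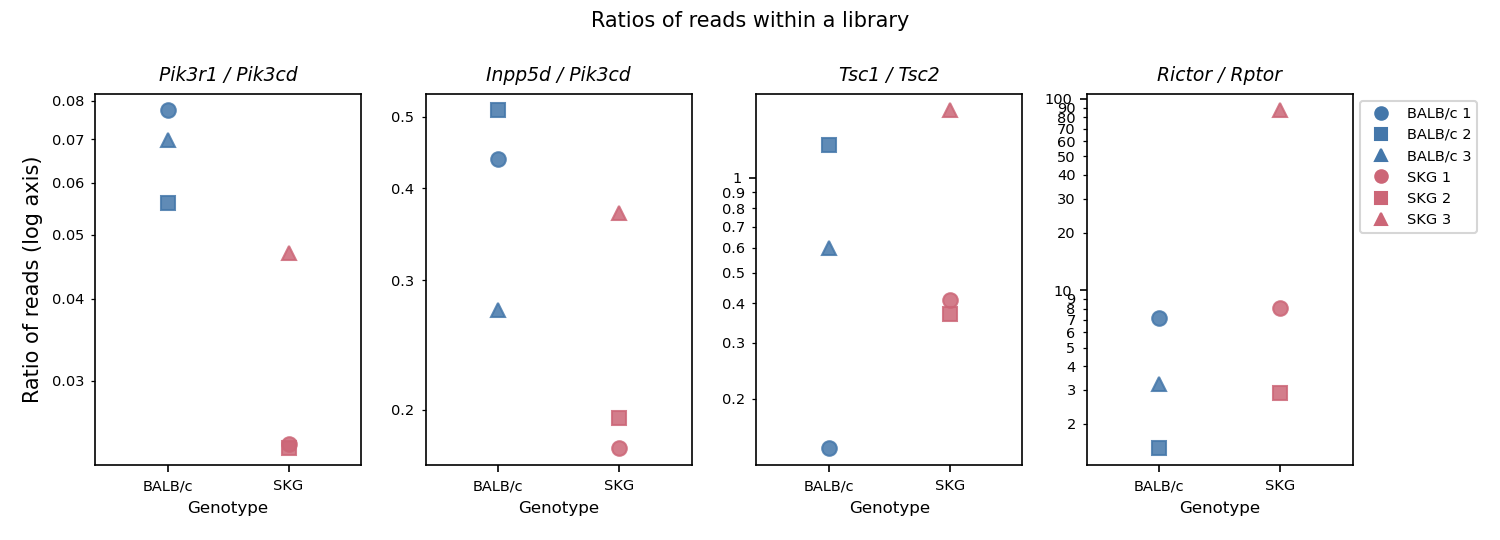
Ratio of reads between partner genes in each library, on log axes, with BALB/c in blue and SKG in red and 1 symbol per replicate number. The Pik3r1 to Pik3cd ratio is at least 0.0560 in BALB/c and at most 0.0469 in SKG, and the other ratios overlap between the genotypes.

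Around these 9 genes, 79 further genes of the pathway were examined in 9 lists, of which 73 passed the filter on low counts (plot of the lists). edgeR called 0 of the 73 (background 0%), and 5 had an unadjusted p under 0.05 (background 5.45%), of which 2 were higher and 3 lower in SKG. The libraries of 9 genes did not overlap (background 13.9%), with SKG on top for 3 (background 6.77%) and BALB/c for 6 (background 7.12%). The median log2 fold change was 0.019, against -0.016 over all tested genes. DESeq2 called 2 of the 73, Klf2 and Rragd (background 1.54%).

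Of the other PI3K class I subunits, 7 of 8 were tested and 0 had an unadjusted p under 0.05, and 5 were higher and 2 lower in SKG. The lowest p in this list belonged to Pik3r2, at 51.5 ± 9.32 CPM in BALB/c and 75.7 ± 23.8 CPM in SKG (mean ± SD, n = 3 libraries), with a log2 fold change of 0.56 (SE 0.33). Its fitted change was thus opposite in sign to that of Pik3r1, although the levels overlapped.

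Among 7 further phosphatases of phosphoinositides and AKT, 6 were tested and only Inpp4a, which acts on the lipid made by SHIP-1, had an unadjusted p under 0.05. It was at 11.9, 38.0 and 23.8 CPM in BALB/c and 5.58, 5.30 and 0.525 CPM in SKG. All SKG libraries were below all BALB/c libraries, with a log2 fold change of -2.69 (SE 1.06, edgeR FDR = 0.880). In the list of AKT, PDK1 and SGK kinases, 4 of 5 were tested and 0 had an unadjusted p under 0.05. Sgk3, a kinase related to AKT, was higher in all SKG libraries, with 13.5, 33.1 and 6.53 CPM against 1.503, 0.108 and 4.23 CPM in BALB/c (log2 fold change 3.18, SE 1.41, edgeR FDR = 0.947). Leaving out 1 library moved this to between 2.37, without SKG replicate 2, and 4.46, without BALB/c replicate 3.

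For the partners in the mTOR and TSC complexes, 6 of 8 were tested and 0 had an unadjusted p under 0.05, with 3 above and 3 below 0. The lowest p was that of Prr5l, a rictor-binding protein for which BALB/c gave 461, 0 and 83 reads and SKG 0, 17 and 0, too uneven for a comparison of levels. Amino acid sensing through the Rag GTPases, which bring mTORC1 to the lysosome, was covered by 19 genes, all tested, of which Castor1 is listed under its older symbol Gatsl3. There, 7 were higher and 12 lower in SKG. Rragd, which encodes RagD, counted 49, 386 and 184 reads over the BALB/c libraries and 0, 4 and 0 over those of SKG. The BALB/c libraries were all above the SKG libraries (edgeR FDR = 0.826), while DESeq2 gave an FDR of 0.0349. Nprl3, a subunit of the GATOR1 complex that restrains mTORC1 when amino acids are scarce, was at 17.9, 20.2 and 62.6 CPM in BALB/c and 90.9, 56.5 and 142 CPM in SKG, with overlap through BALB/c replicate 3 (log2 fold change 1.52, SE 0.61, edgeR FDR = 0.894). Its log2 fold change was 2.34 without BALB/c replicate 3 and 0.84 when BALB/c replicate 1 and SKG replicate 3 were left out. Sesn1, one of the sestrins, inhibitors of mTORC1, was higher in all SKG libraries, though only by 47.2 against 46.7 CPM at the closest pair. Its log2 fold change was 0.72, and 0.42 when BALB/c replicate 1 and SKG replicate 3 were left out.

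The 9 effectors of mTORC1 were all tested, 0 had an unadjusted p under 0.05, and 4 were higher and 5 lower in SKG. In 3 of them all BALB/c libraries were above all SKG libraries (background 7.12%). Eif4e, the cap-binding translation factor that is released by mTORC1 activity, was at 397, 417 and 358 CPM in BALB/c and 322, 329 and 324 CPM in SKG, a small difference with little spread (log2 fold change -0.26, SE 0.13, edgeR FDR = 0.952). Larp1, a regulator of ribosomal protein mRNA, had a log2 fold change of -0.72 (SE 0.35), and Eif4ebp2, an inhibitor of Eif4e, one of -0.92 (SE 0.72), which was -0.43 without BALB/c replicate 1 and -0.33 when SKG replicate 3 was left out as well. Rps6 is in this list, but its reads can be split with near-identical pseudogenes and its value is uncertain.

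Inputs from AMPK and LKB1, which slow mTORC1 when energy is low, gave 0 of 6 tested genes at an unadjusted p under 0.05. Prkaa1, the AMPK catalytic subunit with the lowest p, was at 53.0, 3.81 and 62.4 CPM in SKG against 9.75, 5.31 and 14.4 CPM in BALB/c, so that SKG replicate 2 was the lowest library of all. Of 7 nutrient uptake genes, 3 were higher and 4 lower in SKG. Slc2a3, the glucose transporter GLUT3, was at 146, 330 and 215 CPM in BALB/c and 131, 148 and 79.7 CPM in SKG, overlapping only through BALB/c replicate 1 (log2 fold change -0.95, SE 0.36, edgeR FDR = 0.871). The glutamine transporter Slc1a5 was lower in all SKG libraries, with 418, 522 and 273 CPM against 545, 713 and 534 CPM (log2 fold change -0.56, SE 0.26, edgeR FDR = 0.952). Its log2 fold change was -0.40 when BALB/c replicate 1 and SKG replicate 3 were left out.

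Foxo factors are excluded from the nucleus by AKT, and the last list held them and their T cell targets. Of its 9 genes, all tested, 6 were higher and 3 lower in SKG, with a median log2 fold change of 0.57 against -0.016 over all tested genes. Klf2, which drives the exit of thymocytes through S1pr1, was at 4.44, 0.377 and 15.8 CPM in BALB/c and 66.0, 84.0 and 107 CPM in SKG. Every SKG library lay above every BALB/c library, for a log2 fold change of 3.64 (SE 1.17, edgeR FDR = 0.830), and DESeq2 gave an FDR of 0.0199. The paper already reports more Klf2 transcript in SKG than in BALB/c stage 0 cells, at a smaller fold change than the one fitted here. With edgeR the log2 fold change was 3.07 without BALB/c replicate 2 and 5.15 without BALB/c replicate 3. When BALB/c replicate 1 and SKG replicate 3 were left out it was 3.22 (edgeR unadjusted p = 0.104).

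**Figure D5:**
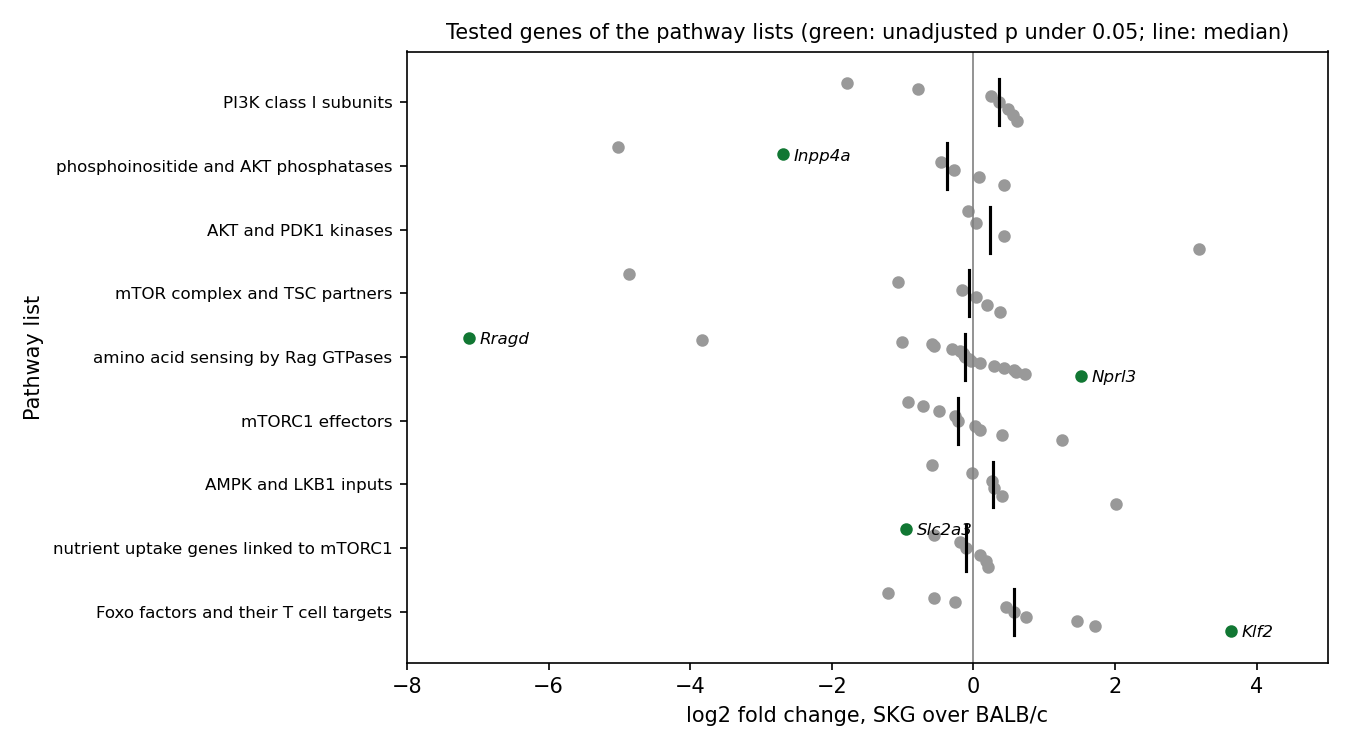
The log2 fold change (SKG over BALB/c) of the 73 tested genes in 9 pathway lists, with 1 point per gene, green where the unadjusted edgeR p was under 0.05, and a black line at the median of each list. Klf2 and Nprl3 lie to the right and Inpp4a, Rragd and Slc2a3 to the left, and the medians lie between -0.37 and 0.57.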

How the data were processed

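RNA-Seq counts of stage 0 iNKT cells were analysed for 3 BALB/c and 3 SKG libraries. The authors mapped 50-nt reads with HISAT2 2.1.0 (GRCm38) and used featureCounts (Subread 1.4.4) on exons, unstranded, with a minimum mapping quality of 10. The deposited counts are whole numbers without normalization. A second deposited table holds the authors' DESeq2 1.14.1 comparison (fold changes and p-values) and was not used. Kits differ between the sources (SMART-Seq v4 in the labels, SEQR in the methods). Titles spell the SKG samples SGK, and the genotype label was used.

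In R 4.3.3, edgeR 4.0.16 (filterByExpr, TMM, quasi-likelihood F test, Benjamini-Hochberg adjustment over 12312 genes) was fitted to all 6 libraries without covariates. CPM uses TMM-normalized totals, and exon lengths and positions are from GENCODE M21 by symbol. SE is the log2 fold change divided by the root of F. Alternatives were DESeq2 1.42.0 and limma 3.58.1 (voom), other factors and filters, replicate blocks and libraries left out. DESeq2 without a filter and leaving out BALB/c replicate 1 with SKG replicate 3 were added after seeing the data. Fits were run on simulated data, with pass limits set only at a dispersion of 0.05. That is below the common dispersion of these data, 0.842. The 9 genes and the lists were chosen with earlier results of these data known. Genes of the lists are named where p was under 0.05 or the libraries did not overlap (at most 6 a list), else by lowest p, and the 3 genes most like the gene of lowest p by r of log2 CPM (prior count 2). PCR copies cannot be told from molecules. Values of some genes in these lists are not reported here.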

Additional observations from a re-analysis of the deposited data

How the results depend on the processing

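The 9 genes were called in 0 of the 16 alternatives. Called genes in all rose from 0 to 189 with DESeq2, to 370 with DESeq2 without a filter before the fit and to 2 with edgeR without a filter on low counts. DESeq2 called 2 list genes (Klf2 and Rragd), filtered or not. Pik3cd kept its direction throughout and had an unadjusted p under 0.05 in 6 of the 16. Leaving out 1 library at a time moved the log2 fold change of Inpp5d between -0.28 and 0.089, of Tsc2 between -0.15 and 0.53, of Mtor between -0.72 and 0.10, of Rptor between -2.07 and -0.60 and of Rictor between -0.094 and 0.51, and the log2 difference of Tsc1 to Tsc2 between -0.47 and 1.12. Without BALB/c replicate 1 and SKG replicate 3 that difference was -1.16 and the log2 fold change of Tsc1 was -0.34. Of the 9 members and 73 tested list genes, 36 then had libraries that did not overlap between the genotypes (background 38.7%, with 2 libraries against 2). With all libraries 10 of them did not overlap (background 13.9%). The cause of these shifts was not tested.

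Replicate numbers in titles or library names did not pair the libraries (correlations of deviations between -0.15 and 0.0029). As a replicate block the title number left 0 genes called and the library number 0, with 585 and 443 genes at an unadjusted p under 0.05 against 671 without a block, and the library number turned Tsc2 to -0.082. Library numbers 1 (SKG replicate 1) and 4 (BALB/c replicate 3) each occur in 1 genotype only. With the library number as block, these libraries do not inform the difference between the genotypes. Wide spread between pools, with a common biological coefficient of variation of 91.8%, limits what 3 libraries a genotype can show.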
